A study of Mus musculus with 2 samples.

Results

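Transcripts of the immunoglobulin loci were read in thymus RNA of Pla2g10-Tg/+ mice, which overexpress Pla2g10, a secreted phospholipase A2 that releases fatty acids from phospholipids, and of their littermate controls. The probes were chosen by their printed annotation: a gene name that begins with Igh, Igk or Igl, or a description that names an immunoglobulin heavy chain, kappa or lambda. This gave 81 probes under 50 gene names, of 41174 transcript probes on the array, 55 of them by gene name and 26 by description alone. The probe of Ighmbp2, a helicase gene, was left out. By chain, 56 probes were heavy, 14 kappa and 9 lambda, and 2 probes of Igll1, a surrogate light chain of B cell precursors, were kept apart from the 3 chains.

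An antibody joins heavy chains to light chains of the kappa or lambda kind. Each chain gene is assembled from variable and joining segments placed in front of a constant region, so that transcripts of many different variable segments share 1 constant region. IgM is the heavy chain class that a B cell makes first, and IgG, IgE and IgA follow after class switching. In the mouse most antibodies carry kappa light chains. The thymus is filled with developing T cells and holds a small population of B cells and plasma cells, and developing T cells can transcribe unrearranged heavy chain constant regions.

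RNA from the whole thymus of 6-month-old mice on a C57BL/6 background was pooled from 4 mice of each genotype, and both genotypes had the same standard diet. The labels do not name the promoter of the transgene. The pools were hybridised together on 2 two-colour arrays with the dyes exchanged: the transgenic pool carried the red dye on array 1 and the green dye on array 2. The labels give 1 pool per genotype and do not say whether both arrays used the same RNA, and the arrays were treated as a dye swap of 1 pair of pools. Read so, the SD given with each value covers labelling, dye and hybridisation, not the spread between mice, and no test between genotypes was made.

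The immunoglobulin probes were mostly dark. Only 9 of 81 (11.1%) were detected, meaning that the software marked 1 genotype's channel as well above background on array 1 and again on array 2, against 12236 of all 41174 transcript probes (29.7%). The detected probes were 7 of 56 heavy, 2 of 9 lambda, 0 of 14 kappa and 0 of 2 Igll1. Under the softer mark of the scanner software, positive and significant signal, the number was 18, with 12 heavy, 5 lambda and 1 kappa, against 44.8% of all transcript probes. None of the 81 was saturated. Detection also moved with the dye: on array 1 the transgenic pool had 12 well above background and the control pool 9, and on array 2 the transgenic pool had 8 and the control pool 10, so that the red channel had the higher count each time. The same held over all transcript spots, with 34.1% transgenic and 28.9% control on array 1, and 28.4% and 33.2% on array 2.

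The detected probes lay towards the constant end of the heavy and lambda loci, as the plot of signal along the loci shows. The split used here was drawn after the values were seen. The heavy line was put at the last probe of the IgM transcript AK088666 and the lambda line at the LOC207685 probe. Each is the detected probe furthest to the variable side, so a count of 0 detected beyond it was fixed by the cut. Positions are those printed for the array's probes, on mouse build mm8. At the constant end of the heavy chain locus, chromosome 12 from 113706582 to 113869286, 7 of 13 probes were detected. On the variable side, from 113876338 to 116400479, the number was 0 of 37. At the constant end of the lambda locus, chromosome 16 from 18975296 to 18978991, 2 of 3 probes were detected, and on its variable side 0 of 6. The kappa probes, on chromosome 6 from 67655176 to 70537486, numbered 12, with 0 detected. The other 8 chain probes had no usable position: 4 heavy probes had none printed, 2 named Ighv4-2 were placed on chromosome 6 inside the kappa stretch, and 2 named for a kappa variable segment were placed on chromosome 12, with a description of a mouse mammary tumour virus transcript. None of these 8 was detected.

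Of the 7 detected heavy chain probes 3 were those of IgM, named IgM 1 to IgM 3 here by position, within 2.828 kb. The gene name printed with IgM 1 and IgM 3 is Igh-6, an older symbol of Ighm. IgM 1 (AK088666, chromosome 12 from 113866458 to 113866517) had a normalized intensity of 1008 in the transgenic pool and 1216 in the control pool on array 1, and 905 and 1010 on array 2. IgM 2 (ENSMUST00000003582, 113868697 to 113868756) read 1188 transgenic and 1287 control on array 1, and 989 and 1153 on array 2. IgM 3 (AK088666, 113869227 to 113869286) read 256 transgenic and 352 control on array 1, and 257 and 300 on array 2. At all 3 the transgenic pool was the lower one on each array, which did not hold on array 1 when arrays were only median-centred. As log2 of transgenic over control, the means were −0.21 ± 0.08 for IgM 1, −0.17 ± 0.07 for IgM 2 and −0.34 ± 0.17 for IgM 3 (SD, n = 2 arrays), the last equal to 0.789-fold. Of all detected probes, 4.47%, 8.19% and 0.883% had a mean as low or lower. In whole tissue, fewer cells of a type and less RNA per cell cannot be told apart.

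A pair of further probes annotated to the IgM heavy chain lay 1.486 and 2.584 kb from IgM 1, on the side of the other constant genes, and were not detected. Their means were −0.01 ± 0.12 and −0.01 ± 0.06, where a ratio says little because both pools were near background.

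The other detected heavy chain probes lay among the constant genes that follow IgM. The 3 probes of BC004786, whose printed gene name is the variable family Igh-VJ558, lay 159.6 to 159.9 kb from IgM 1. In the RefSeq table (GRCm38.p6) Igha, the constant region of IgA, lies 162.6 kb from Ighm, so their placing is that of the IgA gene more than that of a variable segment. BC004786 1 (113706582 to 113706641) read 342 transgenic and 289 control on array 1, and 265 and 281 on array 2. BC004786 2 (113706720 to 113706779) read 194 and 178, then 164 and 183. BC004786 3 (113706840 to 113706899) read 138 and 142, then 137 and 133. At each of the 3 the higher pool changed between the arrays, and the dye effect (for the first, 0.16) was larger than the mean ratio. The means were 0.08 ± 0.23, −0.02 ± 0.19 and 0.003 ± 0.06.

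The remaining detected heavy chain probe, of X87228, lay 89.7 kb from IgM 1, where RefSeq places Ighg1, a constant region of IgG, at 92.3 kb. It read 80.5 transgenic and 83.8 control on array 1, and 73.2 and 79.6 on array 2, with a mean of −0.09 ± 0.04. It is dim enough for the offset of 50 to pull its ratio towards 0: without the offset the mean was −0.27, and with the software's ratios −0.30. It was not well above background in the transgenic channel of array 2. The other 2 probes of X87228 at this place were not detected, nor was 1 placed on the variable side, at 114109620 to 114109679. A probe named Ighg (BC092269), 112 kb from IgM 1, was well above background only in the red channel of each array, once in each genotype, with ratios of −0.04 and 0.02.

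The light chains differed from each other in detection. Lambda 1 (AK008094, printed as Igl-V1, chromosome 16 from 18975296 to 18975355) read 113 transgenic and 91.2 control on array 1, and 99.2 and 94.98 on array 2. Lambda 2 (printed as LOC207685, 18978932 to 18978991) read 102 and 90.0, then 90.0 and 86.7. The transgenic pool was the higher one on each array at both probes, by little on array 2, which reversed there under median centring alone. Their means were 0.18 ± 0.17 and 0.12 ± 0.09, and 7.30% and 15.5% of all detected probes were as high or higher. They lay 3.636 kb apart, and the RefSeq constant regions Iglc1 and Iglc3 lie 3.613 kb apart. Both are dim too, with signal in at least 1 channel below the offset. The other probe of this stretch (M94350) was well above background in 1 channel only, with ratios of 0.17 and 0.05.

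The absence of detected kappa probes is given here beside their placing. The kappa probe nearest to the constant end lay 89.0 kb past the Igk-V21-12 probe. RefSeq distances were counted from the gene taken as the match of Igk-V21-12. By these, Igkv3-7 lies 89.2 kb away and Igkc, the single kappa constant region, 208.2 kb away. The 1 probe described as the kappa constant region was placed among variable segments, at 68186355. So by this spacing no kappa probe was placed at the constant region. Whether their placing bears on their detection was not tested. The 14 kappa probes had median signals above local background of 5.16 and 11.3 units in the transgenic and control channels of array 1, and 8.59 and 4.45 on array 2. The 314 negative control spots had medians of 2.66 and 9.21, then 7.58 and 2.31. Of the kappa probes, 0 exceeded the 95th percentile of the negative controls in all 4 channels, and of the heavy variable-side probes 4 of 37 did.

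**Figure D1:**
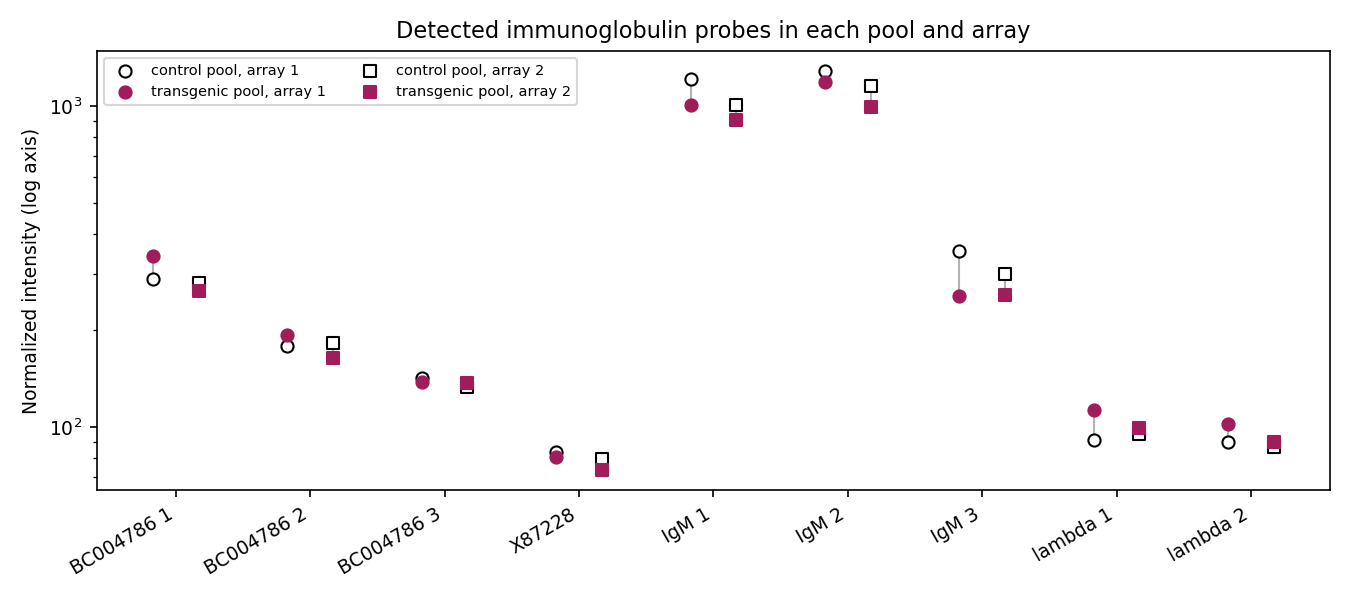
Normalized intensity (log axis) of the 9 detected probes in each pool; circles are array 1, squares array 2, open symbols the control pool and filled symbols the transgenic pool. The filled symbol is the lower one on both arrays at the 3 IgM probes and at X87228, the higher one on both at lambda 1 and lambda 2, and changes sides at BC004786; with median centring alone all 9 would change sides.

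Among the 9 detected probes, 2 were higher and 4 lower in the transgenic pool on both arrays, where 27.5% of all detected probes were higher and 29.4% lower. Of the 4 lower ones X87228 passed the detection rule only through the control pool, so its lower sign is not independent of that rule. None moved by 0.5 on the log2 scale on each array, a size that 0.294% of all detected probes reached upwards and 0.0572% downwards. None had a mean of 1 beside that, where 0.0327% of all detected probes did, all of them higher. With array 2 left unturned, so that the dyes and not the genotypes were compared, 0.00817% of all detected probes passed 0.5 on each array. The median over the 9 was −0.02, with −0.04 on array 1 and −0.12 on array 2, and that of all detected probes was −0.0059. The heavy chain median was −0.09, the IgM median −0.21 and the lambda median 0.15. The heavy median, over both arrays and on array 1, is the value of X87228. That dim probe read −0.27 without the offset. Lambda minus heavy was 0.30 on array 1 and 0.21 on array 2, and lambda minus IgM 0.52 and 0.28. With 2 and 3 detected probes, the lower lambda mean was 0.12 and the highest IgM mean −0.17. The 2 IgM probes of the constant end that were not detected read −0.01 each. Taking IgM apart from the other heavy chain probes was not planned. On array 2 the lambda median was 0.058, below the median SD between arrays of all detected probes (0.089). Probes of 1 gene share its transcripts, so the probes are not independent, and the differences between chains were not tested.

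The opposite signs of IgM and lambda held on both arrays without the offset, without background subtraction and with the software's own dye-normalized ratios. With median centring alone, which leaves the dye trend along intensity in place, the means over the swapped arrays stayed close (IgM median −0.27, lambda median 0.14), but 0 of 3 IgM probes were lower and 0 of 2 lambda probes higher on both arrays. That centring left the median of all detected probes at 0.35 on array 1 and −0.41 on array 2; relative to it, 1 of 3 IgM probes was lower on both arrays and both lambda probes were higher. By the software's own p-values, 2 of the 9 (IgM 3 and lambda 1) were under 0.01 on array 1, where 7.48% of all detected probes were, and 0 on array 2, where 3.64% were.

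**Figure D2:**
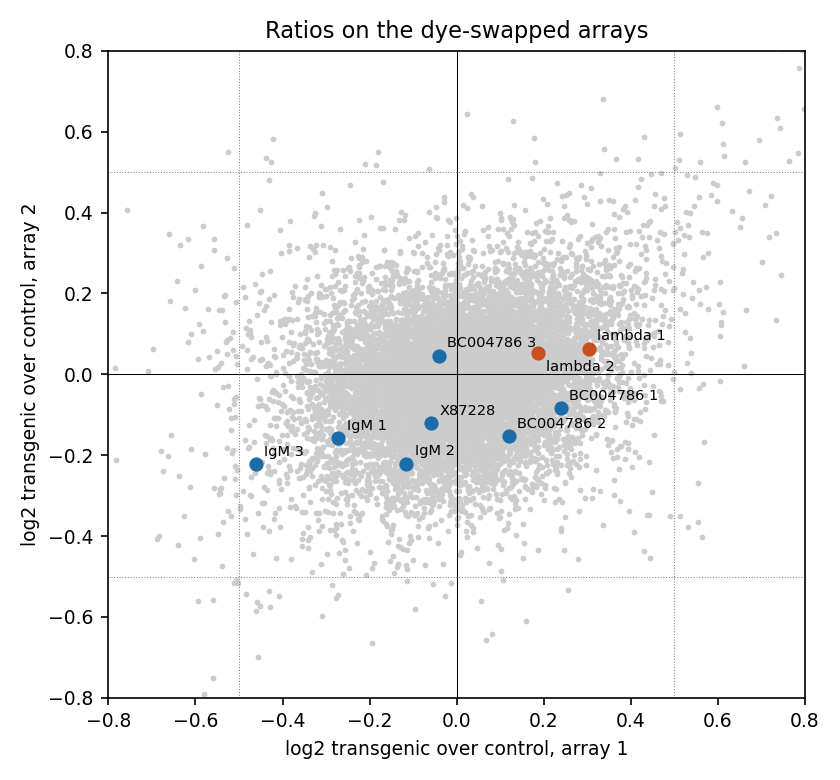
Log2 of transgenic over control on array 1 (horizontal) and array 2 (vertical) for all detected probes in grey, 7 heavy chain probes in blue and 2 lambda probes in orange; dotted lines mark 0.5, and 27 grey probes lie beyond the axes at 0.8. The 3 IgM probes lie in the lower left and the lambda probes in the upper right, all 5 inside the grey cloud and within the dotted lines; with median centring alone none of the 5 keeps 1 sign on both arrays.

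Other genes of the B lineage gave few values to set beside these. All values of marker genes are after loess normalization only. Of 20 B cell genes on the array 3 were detected: Cd79b, a signalling chain of the B cell receptor, at 0.13 ± 0.03, Blnk, an adaptor below that receptor, at 0.34 ± 0.11, and Pou2af1, a coactivator of immunoglobulin transcription, at 0.02 ± 0.18. Ms4a1, Cd79a and Pax5 were not detected. The 3 summed to 462 transgenic and 388 control on array 1, and 401 and 369 on array 2. Of 12 plasma cell genes 6 were detected, 1 higher and 1 lower on both arrays, where 27.5% of all detected probes were higher and 29.4% lower. Jchain, which joins IgA and IgM into polymers, read 0.02 ± 0.14, and Mzb1, a chaperone of antibody-secreting cells, 0.13 ± 0.11. Edem1, which takes part in disposing of misfolded glycoproteins, read −0.51 at its brightest probe and −0.03 at the highest of its 3. The 6 plasma cell genes summed to 1608 transgenic and 1874 control on array 1, of which Edem1 alone read 709 and 1012. On array 2 they summed to 1422 and 1688. Of 7 genes of immunoglobulin receptors and switching 2 were detected, Fcer1g at −0.02 ± 0.02 and Ung at −0.05 ± 0.20. Of 8 B precursor genes 3 were detected, 1 higher and 2 lower on both arrays. The higher one, Il7r, read 0.08 ± 0.02 at 1 dim probe of its 3. The lower ones, Rag1 and Dntt, are given below, and Vpreb1, Vpreb2 and Igll1 were not detected.

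Of 8 genes of immature thymocytes all were detected. Of them 7 were lower on both arrays (29.4% of all detected probes were), 1 of these by 0.5 on each (0.0572%). The median of the 8 genes was −0.37. Cd4 read 0.02 at its brightest probe, itself dim (82.4 transgenic and 81.0 control on array 1), and −0.12 at its lowest. The summed intensity of the 8 genes was 21654 transgenic and 28024 control on array 1, and 19087 and 25011 on array 2. They include Rag1, which cuts antigen receptor genes for rearrangement, at −0.31 and Dntt, which adds bases at the joins, at −0.41, enzymes used by T and B cell precursors alike. The detected fat cell genes (5 of 8, median 0.78) and red cell genes (3 of 3, median 0.85) were higher on both arrays. Cfd, Car3 and Cidec read 73.6, 65.5 and 65.2 in the control pool on array 1, and 60.1, 55.7 and 56.8 on array 2. These control readings are near background. Detection of these genes may have rested on the transgenic pool, so their higher sign may not be independent of the detection rule. Fabp4, whose mean is the fat cell median, read far above that, at 721 and 608 in the control pool. Of 4 genes of lymphoid follicle and node stroma 2 were detected: Ccl21a, a chemokine that draws lymphocytes, at 0.95 ± 0.08 and Ccl19, which shares its receptor, at 0.29 ± 0.44, while Cxcl13, which draws B cells into follicles, was not. The part of these cell types in the IgM and lambda values was not tested.

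**Figure D3:**
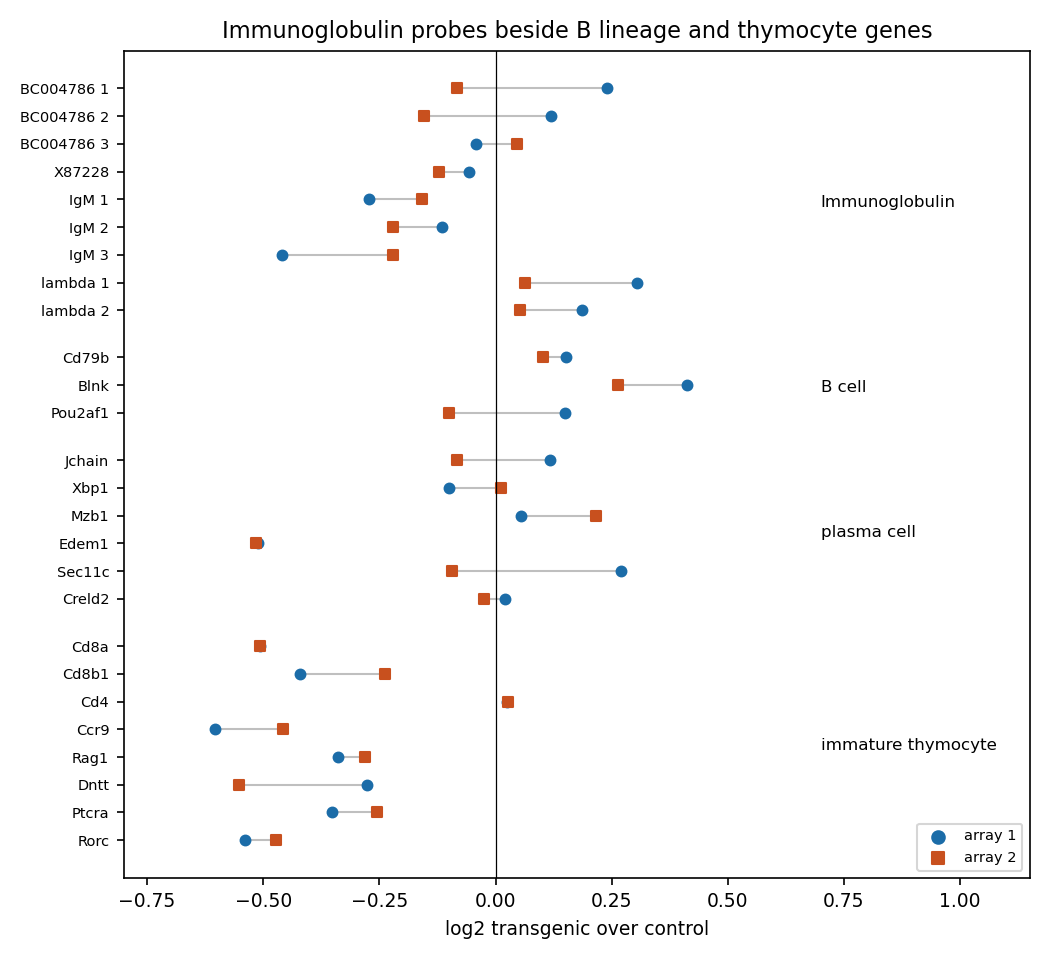
Log2 of transgenic over control on array 1 (circles) and array 2 (squares) for the detected immunoglobulin probes and the detected genes of 3 marker lists, 1 row each, with a grey line joining the arrays. The IgM probes and 7 of 8 immature thymocyte genes lie left of 0 on both arrays, and both lambda probes lie right of it. Of the detected B cell genes, Cd79b and Blnk lie right of 0 and Pou2af1 changes sides. Of the detected plasma cell genes, Mzb1 lies right, Edem1 left, and the others change sides. The IgM and lambda signs do not hold on both arrays with median centring alone. The marker genes are shown after loess normalization only.

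The 72 probes that were not detected include all kappa probes and most heavy and lambda ones. Their mean ratios ran from −0.14 to 0.11, and their signals above local background reached at most 27.6 and 25.8 units on array 1, and 20.5 and 24.1 on array 2, in the transgenic and control channels. Of these 72, 9 exceeded the 95th percentile of the negative controls in all 4 channels and 21 in none. At this sensitivity a difference in single variable segments was not detectable, which does not show that their transcripts were absent.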

How the data were processed

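Total RNA (500 ng per labelling) was hybridised to Agilent two-colour arrays. The deposited files are per-spot scanner output, which the file headers credit to Feature Extraction 9.5.1.1: mean spot and median local background intensity, deposited log10 ratios of red over green, software p-values and background marks. The deposited series table holds the same log10 ratios. From the intensities, background was corrected by normexp (offset 50) and dyes were balanced by loess within each array (limma 3.58.1, R 4.3.3), with control and outlier spots at weight 0. Repeated spots were averaged per probe. The sign of array 2 was turned so that every log2 ratio is transgenic over control. The normalization was checked on simulated data with larger changes at brighter probes only, which does not cover small ratios or dim probes. Every detected immunoglobulin probe was named. For a marker gene with several probes the brightest detected one was used. The members and lists were chosen with earlier results of these data known. The probe sequences were not used here. Gene spacing came from RefSeq (GRCm38.p6), where 17 of the 50 gene names were found; no coordinates were converted between builds. Alternatives were offset 0, no background subtraction, the software's ratios, the series table, median centring, no filter, signal well above background in all 4 channels (which kept 8 of the 9 detected probes, without X87228), 1 probe per gene and each array alone.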

Additional observations from a re-analysis of the deposited data

How the results depend on the processing

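With 1 pool per genotype, the results are values without a test, and those near 0 move easily. Each array alone gave a median over the detected immunoglobulin probes between −0.12 and −0.041, a heavy median between −0.15 and −0.058 and a lambda median between 0.058 and 0.25. Without the offset the heavy median was −0.17 and the lambda median 0.32; with the software's ratios, and with the series table that holds the same ratios, they were −0.17 and 0.37, since the offset compresses dim probes by construction. Without a filter 81 probes entered, and the heavy median was −0.013 and the lambda median 0.021. With the positive and significant mark, an alternative chosen after seeing the data, 18 entered, and these medians were −0.015 and 0.11. In all, 55 of the chain medians and counts under alternatives moved by less than 1 SD (counts, by 1.5 times or less) and 11 moved more. Part of the 55 could not move, since the number of detected probes does not depend on how the ratios are made. The series table also repeats the software's ratios, so these totals are no measure of how firm the values are. Signals near background set the limit of what could be read.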
